A study of Homo sapiens with 4 samples.

Results

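The proteins of small nucleolar ribonucleoprotein particles (snoRNPs) and of the small subunit processome were examined as a set of 48 genes in RNA-seq of cells labelled HepG2, a human liver cancer line. The rule takes the members by name and uses no measured value, although the set was proposed with earlier results of these data known. All 48 were found among 57979 genes with values. All 48 also passed the filter on low values, an average above 1 FPKM, with 13246 genes in all. FPKM counts the fragments mapped to a gene per length of transcript and per depth of the library, so levels may be set side by side between genes. The groups were wild-type cells and cells in which TXNDC9, a thioredoxin domain protein, had been targeted with CRISPR-Cas9, with 2 libraries each. All 4 libraries came from cells grown in DMEM with serum and were made from polyadenylated RNA, and the labels give no drug, dose or time. For the protein blots the study describes cells sorted for Cas9 with a guide against TXNDC9 or with vector alone, but whether the sequenced cells were sorted in that way or came from a single clone is not given in the sources used here. The study speaks of independent experiments for its RNA-seq values, in another number than the 2 libraries per group here, and how those relate to these libraries is not given either. The p-values may thus measure only technical spread between these libraries.

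Ribosome assembly starts in the nucleolus, where RNA polymerase I transcribes a long precursor of the ribosomal RNAs. Box C/D snoRNPs guide ribose methylation and H/ACA snoRNPs guide pseudouridylation of that precursor, each with a short guide RNA and a fixed core of proteins. The U3 snoRNP and many UTP proteins join the precursor in ordered modules (UTP-A, UTP-B, the MPP10 module and UTP-C) to form the small subunit processome, which folds and cleaves the part that becomes the 18S rRNA of the small (40S) ribosomal subunit. Late factors then accompany the particle to the cytoplasm. Many of these genes are textbook targets of the transcription factor MYC and are highly expressed in growing and cancerous cells.

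The libraries differed as wholes before any member was considered. Their summed FPKM came to 805816 and 971102 for wild type and to 535973 and 568279 in the knockout. The 48 members together made up 0.443% and 0.449% of these sums in the wild type and 0.397% and 0.405% in the knockout. TXNDC9 itself was at 35.1 and 37.3 FPKM in the wild type and at 21.9 and 27.6 FPKM in the knockout, a log2 fold change of -0.55 (standard error 0.14, limma adjusted p = 0.0145) that became 0.12 when each library was rescaled to sum to 1000000 (TPM). MYC was at 175 and 168 FPKM in the wild type and at 129 and 130 FPKM in the knockout (log2 fold change -0.41, limma adjusted p = 0.0182, and 0.28 after TPM rescaling). The labelled cell type was not borne out by its defining markers. Of 9 hepatocyte markers none had a mean above 1 FPKM, APOA1 was listed at 0 in all 4 libraries, ALB was at 0.026 FPKM in a wild-type library and listed at 0 in the others, and the 9 together summed to between 0.446 and 0.733 FPKM in the wild type and between 0.0479 and 0.174 FPKM in the knockout. Of 10 markers of other cell types, 4 had a mean above 1 FPKM, led by COL1A1 with a mean of 23.1 FPKM, and their sum was 58.7 to 59.5 FPKM in the wild type and 42.4 to 44.6 FPKM in the knockout. The part of any difference in cell make-up in the results below was not tested, and in bulk RNA fewer cells of a type cannot be told apart from less RNA per cell.

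On the deposited values the fitted level was lower in the TXNDC9 knockout for 38 of the 48 members, beside 7067 of all 13246 tested genes. After TPM rescaling it was lower for 18 members, beside 3720 of all tested genes. The extent differed widely from gene to gene. A gene was called when limma, fitted on log2(FPKM + 0.1) and adjusted over all 13246 genes by the Benjamini-Hochberg method, passed an adjusted p of 0.01 and the fitted change was 2-fold or more. Of the 48 members, 11 were called lower, against 15.3% of all tested genes, and 2 were called higher, against 14.2% of all tested genes. The 11 that fell were FBL, NOP56, NOP10, GAR1, TBL3, RRP9, IMP3, RRP7A, WDR46, NOC4L and RRP12, and the 2 that rose were WDR3 and WDR36. At an adjusted p under 0.01 with no limit on the fold, an alternative chosen after the data had been seen, 24 members were lower and 4 were higher, the latter being WDR3, WDR36, HEATR1 and UTP20, against 27.1% and 23.7% of all tested genes. In 36 members both knockout values lay below both wild-type values, as they did in 45.9% of all tested genes. In 9 members both knockout values lay above both wild-type values, as in 40.1% of all tested genes, and in PWP2, BMS1 and TSR1 the libraries overlapped. Between replicates, wild-type replicate 2 was the higher in 39 members (median log2 difference 0.14) and knockout replicate 2 in 44 members (0.10). With 2 libraries per group an exact permutation test of a single gene cannot give a two-sided p under 0.33, so each single call rests on the spread that limma shares across genes.

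**Figure D1:**
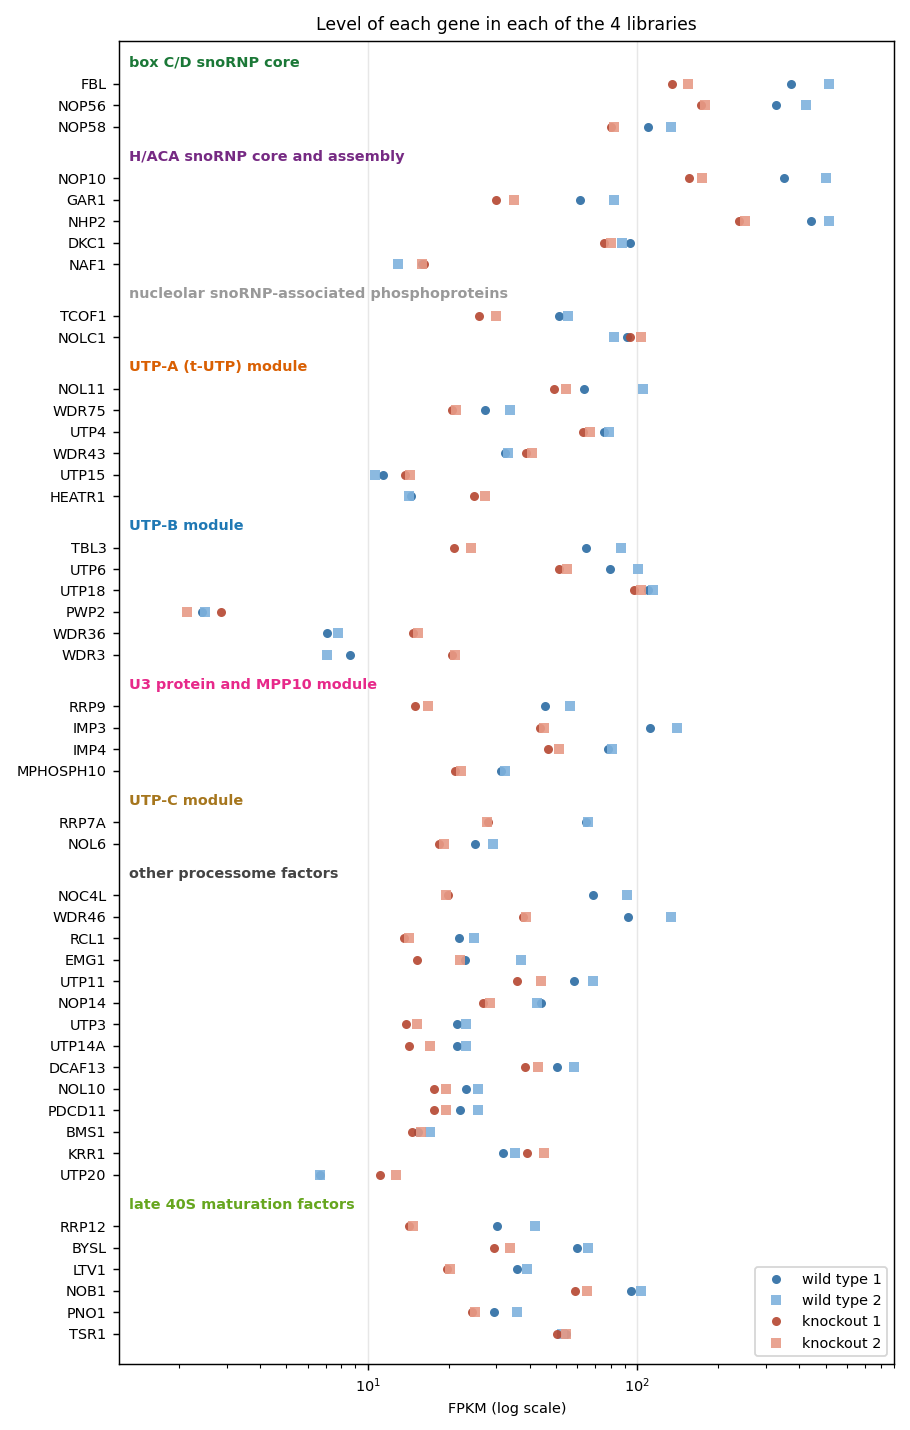
FPKM of each of the 48 genes (log axis) in the 2 wild-type libraries (blue) and the 2 TXNDC9 knockout libraries (red), grouped by role and sorted by fold change within each role. Red points lie left of both blue points in 36 genes, right of both in 9, and among them in 3.

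The median member had a log2 fold change of -0.60, against -0.09 for all tested genes. The direction of that median depended on the scaling, being 0.08 after TPM rescaling, which moved the median of all tested genes to 0.59, and -0.74 after centring on the median of each library, where that of all genes was -0.23. The distance between members and all genes was -0.51 as deposited. After TPM rescaling 2 members were called lower (TBL3 and NOC4L, against 3.37% of all tested genes) and 6 higher (UTP15, HEATR1, WDR3, WDR36, UTP20 and KRR1, against 33.1%). TPM rescaling moves all genes by nearly the same amount, so the 11 members called lower, chosen for a 2-fold fall, had to stay below 0. They ran from -1.32 for NOC4L to -0.40 for NOP56 there. Leaving out either knockout library left 0 of all 13246 genes called by limma, members included. At an unadjusted p under 0.05, 22 members were lower and 4 higher without knockout replicate 1, against 27.7% and 26.1% of all tested genes, and 27 and 4 without knockout replicate 2, against 30.3% and 24.9%. Without wild-type replicate 1 the median member was at -0.68, against -0.13 for all tested genes. Without wild-type replicate 2 it was at -0.45, against -0.04 for all tested genes.

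The box C/D core is formed by FBL (fibrillarin), the enzyme that methylates the ribose, and by NOP56 and NOP58, which hold it on the guide RNA. FBL (ENSG00000105202, chromosome 19 from 39834458 to 39846379 of hg38, minus strand) was at 371 and 515 FPKM in the wild type and at 135 and 154 FPKM in the knockout. NOP56 (ENSG00000101361, chromosome 20 from 2652593 to 2658393, plus strand) was at 327 and 422 FPKM against 172 and 178 FPKM. NOP58 was at 110 and 134 FPKM against 80.0 and 82.4 FPKM. All 3 had their knockout values below the wild-type values, as had 45.9% of all tested genes, and the enzyme differed most. FBL fell by 1.60 on the log2 scale (standard error 0.19, limma adjusted p = 0.0011) and NOP56 by 1.08 (0.16, adjusted p = 0.0021), while NOP58, at -0.58 (0.13, adjusted p = 0.0106), passed neither the p threshold nor the fold limit, at 0.665 of its wild-type level. After TPM rescaling FBL was at -0.92, NOP56 at -0.40 and NOP58 at 0.10.

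The H/ACA core consists of DKC1 (dyskerin), the pseudouridine synthase, with NOP10, NHP2 and GAR1, and NAF1 is an assembly factor that occupies the place of GAR1 in immature particles. NOP10 (ENSG00000182117, chromosome 15 from 34339159 to 34343180, minus strand) was at 350 and 503 FPKM in the wild type and at 156 and 174 FPKM in the knockout. GAR1 (ENSG00000109534, chromosome 4 from 109815510 to 109824740, plus strand) was at 61.3 and 81.9 FPKM against 29.9 and 34.8 FPKM. NHP2 was at 443 and 516 FPKM against 239 and 252 FPKM. On the deposited values these 3 small partner proteins thus lay lower in both knockout libraries, as did 45.9% of all tested genes. NOP10 fell by 1.35 (standard error 0.20, limma adjusted p = 0.00214) and GAR1 by 1.13 (0.17, adjusted p = 0.00223), and NHP2, at -0.96 (0.14, adjusted p = 0.00202), passed the p threshold but not the fold. The enzyme itself was at 94.1 and 87.8 FPKM against 75.2 and 80.2 FPKM (-0.23, standard error 0.11, adjusted p = 0.108). NAF1 was at 15.9 and 13.0 FPKM against 16.2 and 15.9 FPKM (0.16, 0.13, adjusted p = 0.32). Neither DKC1 nor NAF1 passed the test, and their group differed in sign after TPM rescaling, with DKC1 at 0.45, NAF1 at 0.83 and the other 3 between -0.67 and -0.28.

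Of the nucleolar phosphoproteins that accompany snoRNPs, TCOF1 (treacle, which also works with RNA polymerase I) was at 51.2 and 55.6 FPKM in the wild type and at 26.0 and 30.0 FPKM in the knockout (-0.93, standard error 0.12, limma adjusted p = 0.0013). NOLC1, a chaperone of snoRNPs, was at 91.4 and 82.4 FPKM against 94.2 and 103 FPKM (0.18, 0.12, adjusted p = 0.208). On the deposited values TCOF1 was thus lower without reaching the fold limit, and NOLC1 did not pass the test. After TPM rescaling TCOF1 was at -0.25 (limma adjusted p = 0.0924) and NOLC1 at 0.86 (adjusted p = 0.00184).

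The UTP-A module is the first to bind the precursor and is also tied to its transcription. None of its 6 members was called, beside 15.3% of all tested genes called lower and 14.2% higher. Of the 6, 3 lay below 0 and 3 above. The lowest was NOL11, at 63.3 and 105 FPKM in the wild type and at 49.3 and 54.7 FPKM in the knockout (-0.65, standard error 0.24, limma adjusted p = 0.0547), with the wild-type libraries far apart. The highest was HEATR1, a large scaffold protein of helical repeats, at 14.5 and 14.2 FPKM against 24.9 and 27.2 FPKM (0.85, 0.10, adjusted p = 0.00113). WDR75 (-0.54) and UTP4 (-0.24) lay below 0 and WDR43 (0.27) and UTP15 (0.35) above, none with an adjusted p under 0.01. After TPM rescaling all 6 were above 0, as were 9526 of the 13246 tested genes. HEATR1 passed the p threshold and stood at 1.81 times its wild-type level.

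The UTP-B module, a scaffold built of WD-repeat proteins with UTP6, held the widest split. TBL3 (ENSG00000183751, chromosome 16 from 1972053 to 1982929, plus strand) was at 64.5 and 87.4 FPKM in the wild type and at 20.9 and 24.1 FPKM in the knockout. WDR3 (ENSG00000065183, chromosome 1 from 117929720 to 117966543, plus strand) was at 8.62 and 7.09 FPKM against 20.5 and 21.1 FPKM. WDR36 (ENSG00000134987, chromosome 5 from 111092321 to 111130502, plus strand) was at 7.08 and 7.75 FPKM against 14.7 and 15.4 FPKM. TBL3 was thus lower in both knockout libraries, and WDR3 and WDR36 were higher in both. TBL3 fell by 1.74 (standard error 0.17, limma adjusted p = 0.000715), WDR3 rose by 1.40 (0.13, adjusted p = 0.000623) and WDR36 rose by 1.01 (0.11, adjusted p = 0.00083). UTP6 was at -0.75 (0.15, adjusted p = 0.00593) and UTP18 at -0.16 (0.11, adjusted p = 0.214). PWP2, the sixth protein, was at 2.43 and 2.50 FPKM against 2.86 and 2.14 FPKM (0.00, 0.21, adjusted p = 0.989), but this level is not the whole of the gene. GENCODE lists a further copy of PWP2, on chromosome 21 from 5130871 to 5154658, as an artefact of the assembly, and that copy carried 6.65 and 6.51 FPKM in the wild type and 3.90 and 4.1 FPKM in the knockout. The sum of both was 9.08 and 9.02 FPKM against 6.76 and 6.24 FPKM, so with the copy added the libraries did not overlap, with the knockout lower.

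RRP9 is the protein specific to the U3 snoRNP, and MPHOSPH10, IMP3 and IMP4 form the module that steadies the pairing of U3 with the precursor. RRP9 (ENSG00000114767, chromosome 3 from 51933429 to 51941904, minus strand) was at 45.6 and 56.2 FPKM in the wild type and at 15.0 and 16.7 FPKM in the knockout. IMP3 (ENSG00000177971, chromosome 15 from 75639085 to 75648706, minus strand) was at 112 and 141 FPKM against 43.8 and 45.2 FPKM. All 4 genes of this group had an adjusted p under 0.01 with a negative change, as had 27.1% of all tested genes. The median of the group was -1.10 as deposited and -0.42 after TPM rescaling. RRP9 fell by 1.67 (standard error 0.14, limma adjusted p = 0.000551) and IMP3 by 1.5 (0.14, adjusted p = 0.000662). IMP4 was at -0.69 (adjusted p = 0.00238), and MPHOSPH10, at 31.2 and 32.3 FPKM against 21.1 and 22.3 FPKM, was at -0.55 (adjusted p = 0.00422). IMP4 and MPHOSPH10 stood at -0.01 and 0.13 after TPM rescaling.

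The UTP-C module was represented by RRP7A and NOL6. RRP7A (ENSG00000189306, chromosome 22 from 42508344 to 42519796, minus strand) was at 64.5 and 65.8 FPKM in the wild type and at 28.0 and 27.7 FPKM in the knockout, a fall of 1.22 on the log2 scale (standard error 0.10, limma adjusted p = 0.000538). NOL6 was at 25.0 and 29.1 FPKM against 18.4 and 19.3 FPKM (-0.52, 0.12, adjusted p = 0.00986). For both genes the knockout values lay below the wild-type values, as in 45.9% of all tested genes. After TPM rescaling RRP7A was at -0.54 and NOL6 at 0.16.

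**Figure D2:**
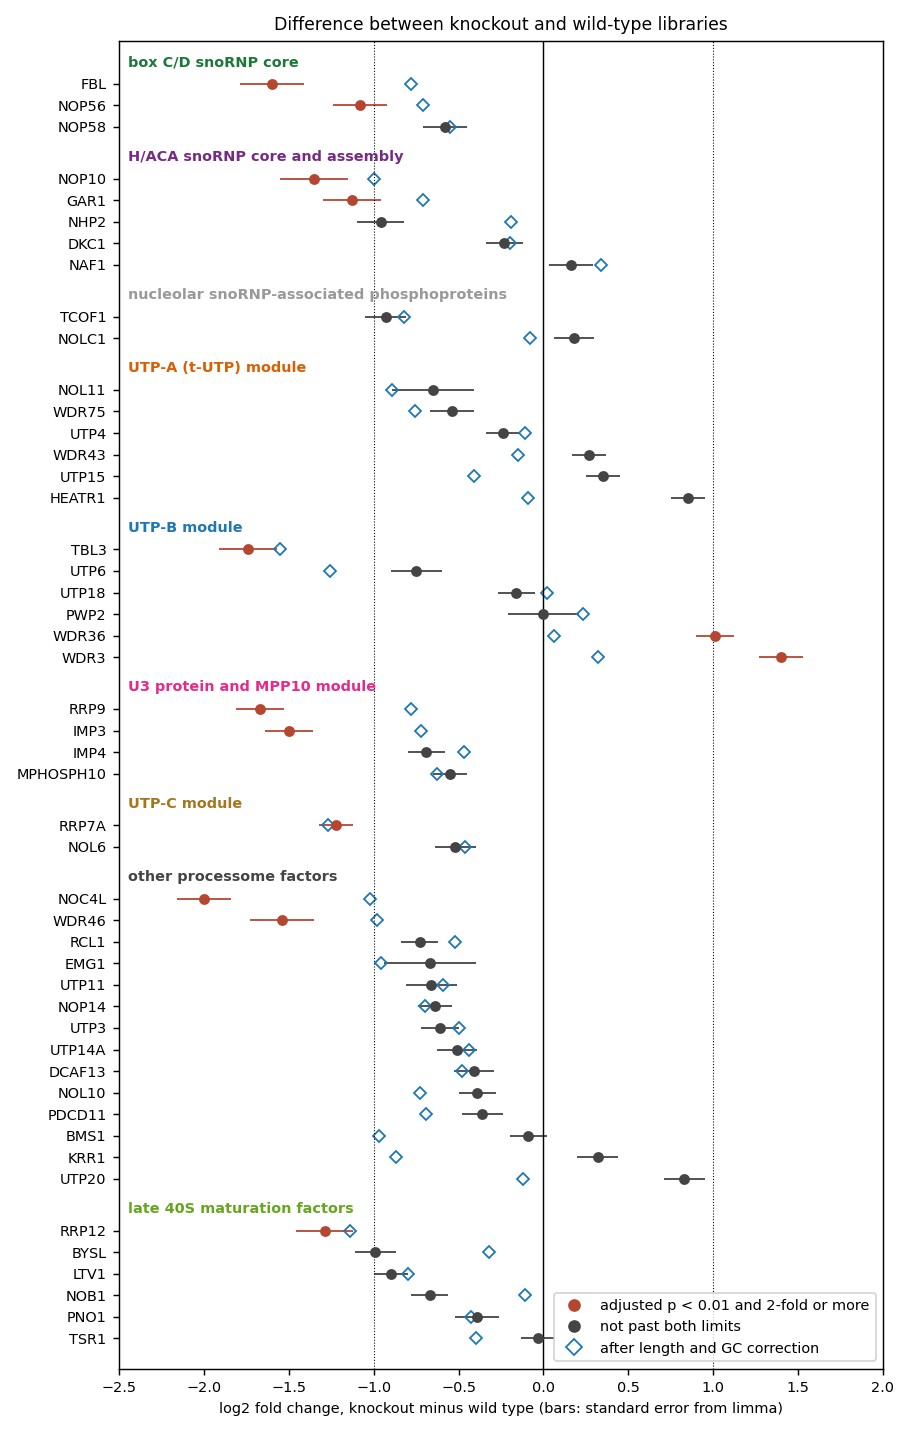
Log2 fold change of the 48 genes, knockout minus wild type, by role, with bars for the standard error from limma. Red points are the 11 genes called lower and the 2 called higher, grey points the rest, and open diamonds the same genes once transcript length and GC content were corrected for, where WDR3 moved from 1.40 to 0.32 and TBL3 from -1.74 to -1.55.

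Among the other 14 processome factors, 2 were called lower, against 15.3% of all tested genes. Of the 14, 12 lay below 0, beside 7067 of 13246 tested genes. Their median of -0.56 was 0.11 after TPM rescaling. NOC4L (ENSG00000184967, chromosome 12 from 132144457 to 132152473, plus strand), a partner of NOP14, was at 68.7 and 91.9 FPKM in the wild type and at 19.9 and 19.6 FPKM in the knockout. WDR46 (ENSG00000227057, chromosome 6 from 33279108 to 33289247, minus strand), a scaffold protein, was at 92.5 and 134 FPKM against 37.8 and 38.7 FPKM. RCL1, which resembles RNA cyclases, was at 21.8 and 24.8 FPKM against 13.6 and 14.3 FPKM. In all 3 the knockout values lay below the wild-type values, as in 45.9% of all tested genes. NOC4L had the lowest fold change of the 48 members. NOC4L fell by 2.0 (standard error 0.16, limma adjusted p = 0.000538), to 0.246 of its wild-type level, and WDR46 by 1.54 (0.19, adjusted p = 0.00117), while RCL1 was at -0.73 (0.11, adjusted p = 0.00235). NOP14 itself was at -0.64 (adjusted p = 0.00235).

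The highest of these 14 were UTP20, a large helical repeat protein, KRR1, an RNA-binding protein, and BMS1, a GTPase. UTP20 was at 6.65 and 6.64 FPKM in the wild type and at 11.1 and 12.8 FPKM in the knockout (0.83, standard error 0.12, limma adjusted p = 0.00184). KRR1 was at 31.9 and 35.3 FPKM against 39.0 and 45.3 FPKM (0.32, 0.12, adjusted p = 0.0579). BMS1 was at 15.4 and 17.0 FPKM against 14.6 and 15.8 FPKM (-0.09, 0.11, adjusted p = 0.491). Of these, only UTP20 passed the p threshold, and none reached the fold limit. EMG1, the methyltransferase of a pseudouridine in 18S rRNA, was at 23.0 and 37.2 FPKM against 15.2 and 22.1 FPKM (-0.67, 0.27, adjusted p = 0.073), with replicates that differed about as much as the groups. UTP11 (-0.66), UTP3 (-0.61), UTP14A (-0.51), DCAF13 (-0.41), NOL10 (-0.39) and PDCD11 (-0.36) completed the group, of which UTP11 and UTP3 had an adjusted p under 0.01.

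The late factors act on the particle after the processome has come apart. RRP12 (ENSG00000052749, chromosome 10 from 97356358 to 97426076, minus strand), an export factor, was at 30.3 and 41.8 FPKM in the wild type and at 14.3 and 14.7 FPKM in the knockout, a fall of 1.29 (standard error 0.17, limma adjusted p = 0.00141). NOB1, the endonuclease that makes the end of 18S rRNA, was at 94.6 and 103 FPKM against 58.9 and 65.2 FPKM (-0.67, 0.11, adjusted p = 0.00346). TSR1, a GTPase-like protein, was at 54.7 and 52.5 FPKM against 50.4 and 54.7 FPKM (-0.03, 0.10, adjusted p = 0.804). RRP12 was called, NOB1 passed the p threshold only, and the libraries overlapped for TSR1. BYSL (-0.99) and LTV1 (-0.90) had an adjusted p under 0.01 and missed the fold limit, and PNO1, the partner of NOB1, was at -0.39 (adjusted p = 0.0337). The median of the 6 was -0.78 as deposited and -0.10 after TPM rescaling, where NOB1 stood at 0.01, PNO1 at 0.28 and TSR1 at 0.65.

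The order of the members followed the length and base composition of their transcripts. Across the 48 genes Spearman's rho of the log2 fold change was 0.551 with the length of the canonical transcript and -0.700 with its GC content, beside 0.495 and -0.462 across 13112 tested genes with a known length. These are correlations across genes of the same 4 libraries, and genes are not independent replicates. A trend with length also stood between the wild-type replicates, where rho with length was -0.323 among members and -0.325 among all. The 15 members with transcripts under 2000 nt, such as NOP10 with 507 nt and FBL with 1125 nt, had a median log2 fold change of -0.99, and 7 of them were called lower against 31.1% of tested genes of that length. The 17 members between 2000 and 4000 nt had a median of -0.54 with 1 called lower, against 10.4%. The 16 members over 4000 nt had a median of -0.22, and 3 were called lower against 4.13% and 2 higher against 30.6%. In each of the 3 ranges the median member lay below the median tested gene, which was at -0.72, -0.12 and 0.61. The part of transcript length and GC content in the differences was not tested, and the correction that follows cannot tell its sources apart.

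**Figure D3:**
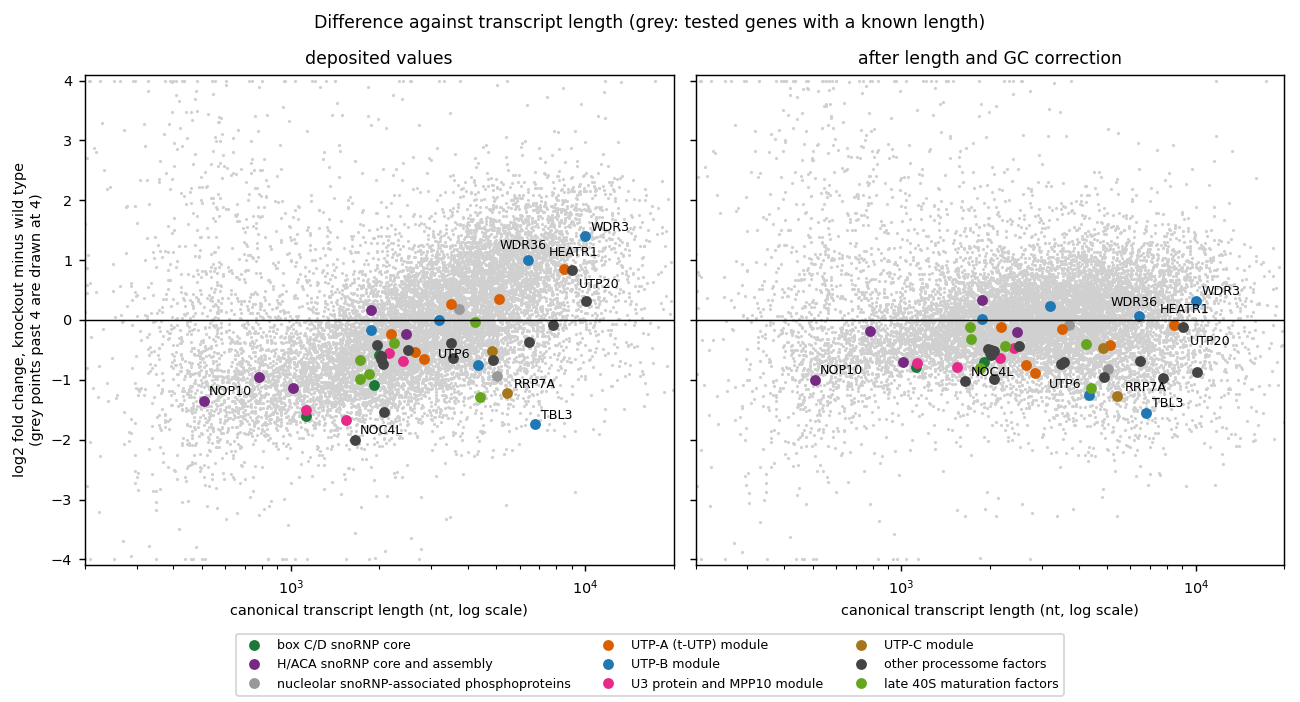
Log2 fold change against canonical transcript length (log axis) for tested genes with a known length (grey) and the 48 members (coloured by role), as deposited on the left and after the correction for length and GC content on the right. On the left the members rise with length, from NOP10 at -1.35 to WDR3 at 1.40, and on the right 43 of the 48 lie below 0.

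In each library a loess curve on transcript length and GC content was fitted to the deviations from each gene's mean over the 4 libraries. It was then subtracted, which removes any group difference going with length or GC content, whatever its source. Among members rho with length became 0.00402, a fall that is thus largely built in, and rho with GC content -0.304. The median member was at -0.57, against -0.05 for all genes. After the correction 43 of the 48 members lay below 0, beside 6916 of 13112 tested genes. Of the members, 6 were called lower against 7.39% of those genes, namely NOP10, TBL3, RRP7A, NOC4L and RRP12, which had been called before, and UTP6. No member was called higher by limma after the correction, against 6.41% of genes, and at an unadjusted p under 0.05 there were 36 lower and 1 higher, against 34.1% and 27.9% of genes. At an adjusted p under 0.01 with no limit on the fold, 28 members were lower, against 19.7%, and 0 higher, against 13.3%. WDR3 was then at 0.32 (adjusted p = 0.067) and WDR36 at 0.06 (adjusted p = 0.623), so both lost their calls. HEATR1 and UTP20, which had passed the p threshold as higher, were at -0.09 and -0.12. KRR1 moved from 0.32 to -0.87 (adjusted p = 0.00283) and BMS1 from -0.09 to -0.97 (adjusted p = 0.00161), both with long transcripts, of 10104 nt with 36.0% GC and of 7759 nt with 42.3% GC. FBL, at -0.78, RRP9, at -0.78, and IMP3, at -0.72, were lower at an adjusted p of 0.00351, 0.0021 and 0.0018 but no longer by the fold limit. Not all members lower at an adjusted p under 0.01 as deposited stayed so. NHP2 was at -0.19 (limma adjusted p = 0.0642), NOB1 at -0.11 (0.234), BYSL at -0.32 (0.0225) and NOL6 at -0.46 (0.0141). By role, all 14 other processome factors, all 6 UTP-A genes and all 6 late factors lay below 0 after the correction. Of the 6 UTP-B genes, 4 lay above, namely WDR3, PWP2 (0.23), WDR36 and UTP18 (0.02). None of these 4 passed the test, with limma adjusted p of 0.067 to 0.851, and the PWP2 value leaves out its further copy.

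Ratios between partners of a complex within a library do not depend on how the libraries are scaled. In UTP-B the ratio of WDR3 to TBL3 was 0.134 and 0.0811 in the wild type and 0.977 and 0.876 in the knockout, a log2 difference of 3.14 that was 1.87 once length and GC content were corrected for. The ratio of UTP18 to TBL3 went from 1.71 and 1.31 to 4.66 and 4.28, a log2 difference of 1.57 with and without the correction. TBL3 was the lowest gene of UTP-B and WDR3 the highest, so their ratio restates fold changes already given. After the correction UTP6, at -1.26, lay near TBL3, at -1.55, and both lay apart from WDR3 and UTP18. In H/ACA particles the ratio of NOP10 to DKC1 was 3.72 and 5.73 against 2.07 and 2.17 (-1.12, and -0.80 after correction), and that of GAR1 to DKC1 was 0.651 and 0.932 against 0.398 and 0.434 (-0.90, and -0.51). The ratio of NHP2 to DKC1 was 4.71 and 5.87 against 3.18 and 3.14 (-0.74), but differed by 0.01 after the correction. In the box C/D core FBL over NOP58 was 3.38 and 3.83 against 1.69 and 1.87 (-1.02), and -0.23 after the correction. The ratio of RRP9 to MPHOSPH10 was 1.46 and 1.74 against 0.71 and 0.75 (-1.13), with -0.15 left after the correction. In UTP-A, HEATR1 over UTP4 was 0.193 and 0.181 against 0.396 and 0.405 (1.09), with 0.02 left. HEATR1 over NOL11 was 0.229 and 0.135 against 0.504 and 0.498 (1.5), and 0.8 after the correction. RRP7A over NOL6 was 2.58 and 2.26 against 1.52 and 1.44 (-0.71), and -0.80 after the correction. In all 14 ratios formed, the groups did not overlap. Most single tested genes did not overlap either, with both knockout values below in 45.9% and above in 40.1%. No such share was computed for ratios of other genes, and the pairs follow no stated rule. For several partners of unequal length little of the difference was left after the correction.

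**Figure D4:**
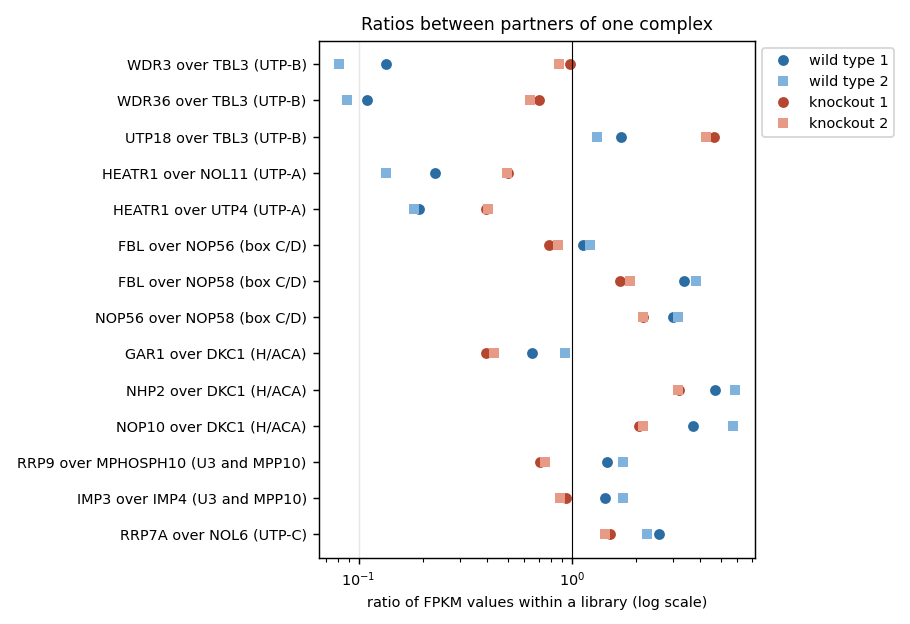
Ratios of FPKM between partners of a complex in each library (log axis), wild type in blue and knockout in red. WDR3 over TBL3, the highest and the lowest gene of UTP-B, moves furthest, from 0.0811 and 0.134 to 0.876 and 0.977. In none of the 14 ratios do the groups overlap, and no such share was computed for ratios of other genes.

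Other genes of ribosome assembly were set beside the members, all in the same comparison and therefore on the same libraries, where 15.3% of all tested genes were called lower and 14.2% higher. Of 47 other snoRNP and 40S assembly factors, 14 were called lower and 3 higher. Their median was -0.75, and -0.07 on the TPM scale, and after the correction for length and GC content 9 were called lower and 0 higher around -0.41. They ran from SLX9 (FAM207A in the table), an export factor at 90.6 and 118 FPKM against 24.0 and 25.7 FPKM (-2.06), to FCF1, a processome nuclease-like protein at 12.9 and 9.05 FPKM against 31.2 and 31.5 FPKM (1.53). Of 56 factors of the 60S subunit, 18 were called lower and 1 higher around a median of -0.75 (-0.07 on the TPM scale), from the helicase DDX54 (-2.03) to the GTPase GNL3L (1.87), and after the length and GC correction 15 were called lower and 1 higher around -0.57. On the deposited values the median of the members, -0.60, was thus not below those of these lists, which share its libraries. After the length and GC correction it was -0.57, below the -0.41 of the other snoRNP and 40S factors and level with the 60S factors. Of 32 ribosomal proteins of the small subunit, which have short transcripts (median 722.5 nt), 17 were called lower and 0 higher around a median of -1.05 (-0.37 on the TPM scale), from RPS28 (-2.14) to RPS29 (0.46, limma adjusted p = 0.118). Among all tested genes under 2000 nt 31.1% were called lower and 5.56% higher, and after the length and GC correction 7 of the ribosomal proteins were called lower and 0 higher around a median of -0.66. Of 14 RNA polymerase I subunits and factors, 1 was called lower (POLR1D, -1.25) and 1 higher (POLR1A, 1.21) around a median of -0.16 (0.52 on the TPM scale, and -0.08 with 0 called after the length and GC correction, where 2 were lower and 1 higher at an adjusted p under 0.01).

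The surroundings of the members bear on what was counted. In GENCODE, 6 members hold 17 snoRNA genes within them, NOP56, NOP58, DKC1, NOL11, WDR43 and TSR1, so that genes for snoRNP and processome proteins also carry guide RNAs, and the median log2 fold change of these 6 was -0.40. NOP56 alone holds SNORA51, SNORD110, SNORD56, SNORD57 and SNORD86. The snoRNAs themselves lack poly(A) tails and were not analysed here. Of the 48 members, 30 overlap another gene, 26 on the opposite strand and 14 with a protein-coding gene, among them TBL3 with NOXO1, WDR3 with SPAG17, IMP3 with SNX33 and WDR46 with B3GALT4. Whether strand was used in counting is not given in the sources used here, so in these genes reads of the partner cannot be told apart. Pseudogenes named after a member exist for 9 members, namely NOP56, NHP2, NOLC1, MPHOSPH10, IMP3, BMS1 with 19, KRR1, DCAF13 and LTV1, and reads shared with such copies make their levels uncertain.

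The promoters were read for the E-box CACGTG, the sequence known to be bound by MYC with MAX and by several related factors. Windows from 250 bases before to 50 bases after the RefSeq start (GRCh38.p14) were on hand for 40 of the 48 members, with none for NOLC1, MPHOSPH10, NOL10, RRP12, TCOF1, NOP58, NAF1 and DCAF13. The motif reads the same on both strands and was found in 18 of the 40 members, or 45%. It was found in 13.1% of 9007 tested genes with a window and in 7.26% of all 35116 windows of that length. The share was 26.5% of 34 other snoRNP and 40S factors, 31.2% of 48 factors of the 60S subunit, 8.0% of 25 small subunit ribosomal proteins and 0 of 10 genes of RNA polymerase I. The 18 members held 21 matches, of which 17 lay within 50 bases of the start and 13 after it. The stretches below are those of the 5 members called lower that hold the motif, and of UTP20, the highest of the members with it, each 5′ to 3′ on the strand of the gene with the E-box in capitals.
FBL (chr19:39846356-39846385, minus strand): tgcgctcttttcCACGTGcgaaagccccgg
NOP10, upstream match (chr15:34343289-34343318, minus strand): gtagggacactcCACGTGttttagcctgca
NOP10, match at the start (chr15:34343130-34343159, minus strand): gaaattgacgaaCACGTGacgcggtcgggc
GAR1 (chr4:109815781-109815810, plus strand): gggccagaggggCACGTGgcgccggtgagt
RRP9 (chr3:51941892-51941921, minus strand): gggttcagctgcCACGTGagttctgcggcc
WDR46 (chr6:33289190-33289210, minus strand): agaggagttttgCACGTGgat
UTP20 (chr12:101280083-101280112, plus strand): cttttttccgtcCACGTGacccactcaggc

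Members with and without the motif did not separate by their change in the knockout. The 18 with it had a median log2 fold change of -0.66, from -1.67 (RRP9) to 0.83 (UTP20), with 5 called lower and 0 higher. The 22 without it had a median of -0.63, from -2.0 (NOC4L) to 1.40 (WDR3), with 5 called lower and 2 higher. After the correction for length and GC content the medians were -0.46 with the motif and -0.70 without it, and among all tested genes they were -0.07 and -0.06 on the deposited values. NOC4L and TBL3, the lowest members, held no match in their windows, and WDR3 and WDR36, the highest, held none either. These are descriptions of letters in a window, and no binding was measured.

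**Figure D5:**
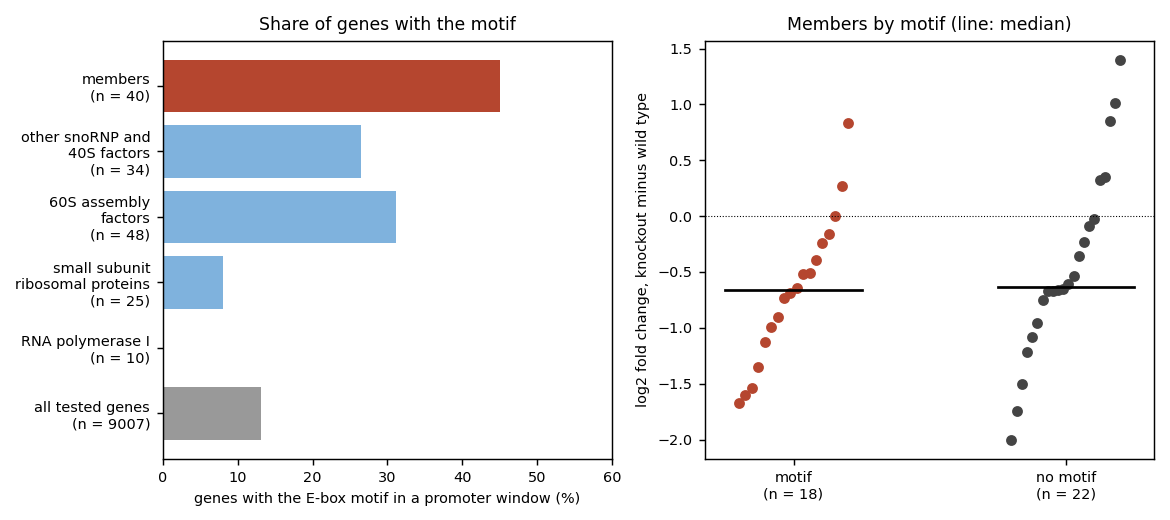
Left, share of genes (%) with the E-box in the promoter window for members, 4 other lists and all tested genes, with bars starting at 0 and the number of genes with a window below each name. Right, log2 fold change of the 18 members with the motif and the 22 without it, with lines at the medians of -0.66 and -0.63.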

How the data were processed

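Libraries of polyadenylated RNA, 2 wild type and 2 TXNDC9 knockout, were sequenced. The authors aligned reads to hg38 by TopHat2, guided by an Ensembl annotation, and ran Cuffdiff, and the FPKM of every gene in each library was deposited. Versions, strand use and normalization between libraries are not given in the sources used here. Without counts the depth is unknown, and no counting intervals are given. Of 231916 lines in the table, 57979 carried values. Identifiers, each present 4 times and out of register with the symbols, were put back in order. The 5 columns holding the authors' averages, log2 fold change, p and q were not used. GENCODE release 44, which held 56935 of the identifiers, gave coordinates, lengths and GC content.

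The comparison ran in limma 3.58.1 (R 4.3.3) on log2(FPKM + 0.1), with a trend in the prior variance, for the 13246 genes averaging above 1 FPKM, without a replicate block and with p-values adjusted by Benjamini-Hochberg. Calls needed an adjusted p under 0.01 and a change of 2-fold or more. The steps were tested on simulated data. The members and lists were chosen with earlier results of these data known. Values in every library are given for all members of role groups of up to 3, the extremes of larger groups (3 at each end of the other processome factors), FBL, DKC1, EMG1, NOB1 and BMS1, and the other lists are named by their extremes. Further genes were named after their values were seen. Alternatives changed the pseudocount (to 1 or 0.01), the filter (none, or an average above 5), the threshold (an adjusted p under 0.05 or 0.01 with no fold limit), the scaling (TPM or median centring), the prior (no trend), the block, and the libraries (each left out), or subtracted a loess curve (span 0.3) on length and GC content, with and without the block. The scripts used Python 3.11.15 with numpy 2.4.6, scipy 1.17.1, pandas 2.3.3 and matplotlib 3.10.9.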

Additional observations from a re-analysis of the deposited data

How the results depend on the processing

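With 2 libraries per group and no counts, depth sets no stated limit, and no outlying library could be tested for. The replicate numbers are only numbers (same-numbered deviations correlated at -0.0904 over all genes and at 0.306 over members), and the replicate block left the same 11 members called lower and 2 higher. The pseudocount of 1 left 1 member called higher. Without a filter 2 small subunit ribosomal proteins and 1 RNA polymerase I gene were called, and 8 members were called lower, against 5.37% of all genes. At an adjusted p under 0.05 with no fold limit 31 members were lower and 6 higher, against 36.7% and 31.6% of all tested genes, with 44, 47, 28 and 12 calls among the other snoRNP and 40S factors, the 60S factors, the small subunit ribosomal proteins and the RNA polymerase I genes, and at 0.01, an alternative added later, 24 and 4 members with 36, 41 and 8 calls in the first, second and last of these lists. After TPM rescaling 2 members were called lower and 6 higher, against 3.37% and 33.1% of all tested genes, and their median was 0.08. Calls in the other lists are counted in both directions together in this section. On the TPM scale 10 of the 60S factors, 3 ribosomal proteins and 6 RNA polymerase I genes were called. The 60S factors ran from DDX54 (-1.35) to GNL3L (2.55). The lowest RNA polymerase I gene was POLR1D at -0.57, so none of these was called lower. There the sign of 20 members turned, and those with an adjusted p under 0.01 on either scale were UTP18 (0.52), MPHOSPH10 (0.13), NOL6 (0.16), UTP3 (0.06), UTP11 (0.01), NOP14 (0.03), BMS1 (0.59), TSR1 (0.65) and NOB1 (0.01). Median centring gave 15 members lower and 1 higher, against 19.6% and 11% of all tested genes, and a median of -0.74. The length and GC correction, alone and with the replicate block, gave 6 members lower and 0 higher, 9 calls among the other snoRNP and 40S factors, 7 among the ribosomal proteins and 0 among the RNA polymerase I genes, and it turned the sign of 7 members, of which HEATR1 (-0.09), UTP20 (-0.12) and KRR1 (-0.87) had an adjusted p under 0.01 before or after it.

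Leaving out each library in turn gave 0 to 15 members lower, 0 to 2 higher, medians of -0.68 to -0.45, and 0 to 20, 0 to 23, 0 to 25 and 0 to 3 calls in the 4 lists. The zeros came from leaving out either knockout library, where the lone library was assumed to vary like the wild-type pair and limma called 0 of all 13246 genes, with the lowest adjusted p among members at 0.0237 and 0.0232. The cause of the other changes was not tested. A pseudocount of 0.01, an average above 5 and no trend in the prior moved no count by more than 1.5 times.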
